A study of Homo sapiens with 9 samples.

Results

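The 53 genes described here encode the machinery that brings proteins into the endoplasmic reticulum (ER), folds and glycosylates them there, and returns misfolded chains to the cytosol for degradation. They were chosen by gene symbol, with earlier results of these data known, so contrasts with all genes are not independent of the data. They comprise ER chaperones and their partners, the signal recognition particle (SRP) and its receptor, the translocon and signal peptidase. The oligosaccharyltransferase and proteins of ER-associated degradation (ERAD) are also among them. All 53 had a row among the 60234 gene identifiers of the count table. All 53 also passed the filter on low counts, which left 15847 genes, so no member was lost before testing. The libraries are bulk RNA sequencing of Ramos, an established B cell line from an EBV-negative Burkitt lymphoma. The groups were cells given no drug (0 h) and cells given 3 µM CHIR99021, a small molecule that inhibits the kinase GSK-3, for 3 h and for 6 h. Each group had 3 libraries, which the submitters describe as biological replicates, and all 9 libraries share this 1 cell line. Untreated cells kept for 3 h or 6 h were not analysed here and the labels name no vehicle, so the drug, its vehicle and time in culture cannot be told apart.

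Proteins bound for the ER are recognised as they leave the ribosome by SRP, which holds their signal sequence and docks at a receptor on the ER membrane. The chain then passes through the Sec61 channel, loses its signal sequence to signal peptidase and receives N-linked glycans from the oligosaccharyltransferase. In the lumen, the HSP70-type chaperone BiP and the HSP90-type chaperone GRP94 bind unfolded chains, and the lectins calnexin and calreticulin hold unfinished glycoproteins. Chains that do not fold are passed to a membrane ubiquitin ligase and degraded by the proteasome. Many of these genes are known targets of the unfolded protein response, in which the factors ATF6 and XBP1 bind ER stress elements in promoters. B cells that become antibody-secreting plasma cells are known to enlarge the same machinery.

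Reads in genes numbered 46359911 to 52880876 per library. Levels are CPM values (reads of a gene scaled to a common library total) after scaling of library size by TMM factors, and differences between groups are log2 fold changes, on which a value of 1 is a doubling, with their standard error (SE). A gene was called when its edgeR quasi-likelihood test had an adjusted p under 0.05 over all 15847 genes. The spread between libraries of a group was 6.53% (biological coefficient of variation). Untreated replicate 3 stood apart from its group, with a chi-square per degree of freedom of 32.6 and 29.2 against the other untreated libraries, which differed by 1.75 from each other. The corresponding range was 2.74 to 13.95 in the treated groups. All 10 B cell markers examined were present, and none of the 20 markers found in the table for T and NK cells, myeloid cells, or epithelial cells and fibroblasts reached 1 CPM. CD3D, CD2, FCGR3A, S100A8, EPCAM and CDH1 had no read in any library. Among plasma cell markers, PRDM1 and SDC1 stayed below 1 CPM at every time, and PRDM1 was called lower at both times. The summed level of the 6 markers listed was 2484 CPM at 0 h, 2826 CPM at 3 h and 3138 CPM at 6 h, most of it JCHAIN, whose mean was 1495 CPM at 0 h, 1842 CPM at 3 h and 2206 CPM at 6 h. JCHAIN, XBP1 and TNFRSF17 rose at both times, whereas IRF4 fell, with means of 500.4 CPM at 0 h, 391 CPM at 3 h and 292 CPM at 6 h. The part of this in the results was not tested.

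Most of the ER machinery was higher after CHIR99021 at both times. At 3 h against 0 h, 46 of 53 members (86.8%) rose, against 32.8% of all genes tested, and 2 fell, against 33.5% of all genes. The median log2 fold change was 0.86 (1.81-fold) for the members and -0.01 for all genes. At 6 h against 0 h, 49 members rose, against 35.7% of all genes tested, and 2 fell, against 35.0%, with a median of 1.10 (2.15-fold) for the members and 0.02 for all genes. Both comparisons use the same untreated libraries and are not independent of each other. Rises of at least 2-fold were found for 20 members at 3 h, against 4.95% of all genes, and for 31 members at 6 h, against 6.44%. No member fell 2-fold at either time. At 3 h the libraries did not overlap for 46 members that were higher, against 34.8% of all genes, and for 0 that were lower, against 35.4%. At 6 h they did not overlap for 49 higher and 2 lower members, against 36.2% and 35.5% of all genes. More RNA per cell and more cells with the RNA cannot be told apart in bulk libraries.

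**Figure D1:**
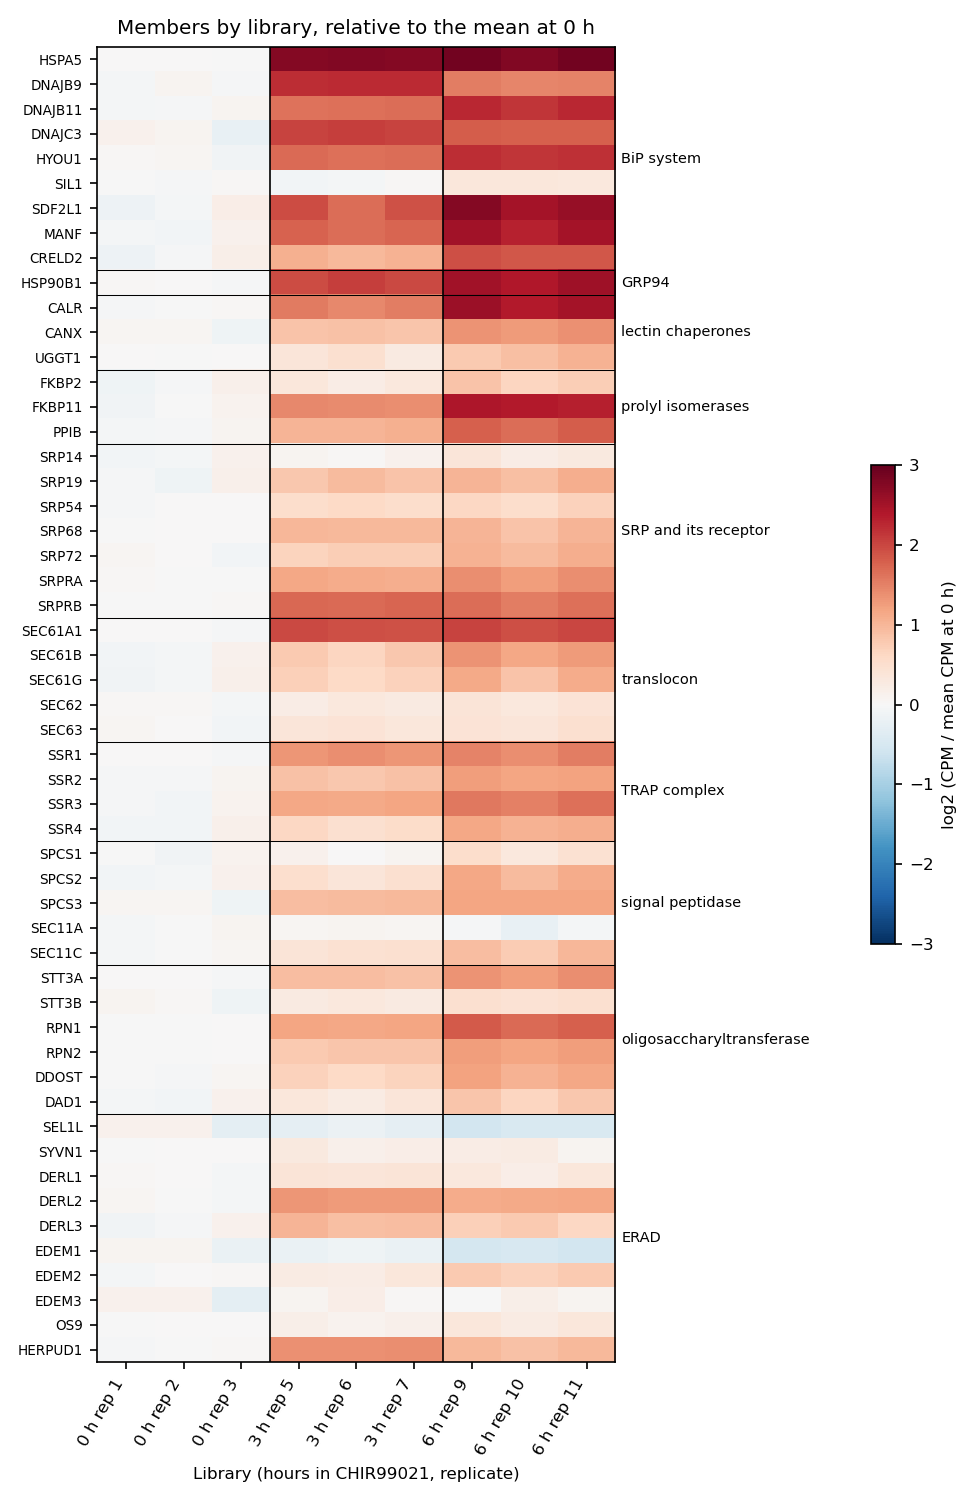
Level of each of the 53 members in every library, as log2 of CPM over the mean CPM at 0 h, with members in rows by role and the 9 libraries in columns by time. Red rows cover nearly all of the BiP system at 3 h and 6 h, whereas SEL1L and EDEM1 are blue at both times.

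Members did not move by one amount. Log2 fold changes at 6 h against 0 h ran from -0.52 for EDEM1 to 2.86 for HSPA5, a spread of 10.4-fold. Among the 100 genes with the largest rises of all genes tested were 6 members at 3 h and 8 at 6 h. HSPA5 was number 17 of all genes at 3 h and number 33 at 6 h. Without untreated replicate 3, 47 members rose and 2 fell at 3 h, and 49 rose and 2 fell at 6 h. The summed level of all members was 8132 ± 173 CPM at 0 h, 16700 ± 28.9 CPM at 3 h and 20900 ± 797 CPM at 6 h (SD, n = 3 each). Of all reads in genes the members took 0.899% at 0 h, 1.61% at 3 h and 1.96% at 6 h. With libraries scaled by size alone, the median of all genes moved to -0.22 at both times and that of the members to 0.65 at 3 h and 0.87 at 6 h. Under that scaling 38 members rose and 4 fell at 3 h, and 44 rose and 3 fell at 6 h. Of all 15847 genes tested, 3468 then rose and 7451 fell at 3 h, and 3656 rose and 7504 fell at 6 h. The member rises lost at 3 h under that scaling were those of UGGT1, FKBP2, SEC62, STT3B, DAD1, SYVN1, EDEM2 and OS9. Those lost at 6 h were of SIL1, SRP14, SYVN1, DERL1 and OS9. SIL1 and SEC11A were then called lower at 3 h, and SEC11A at 6 h.

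**Figure D2:**
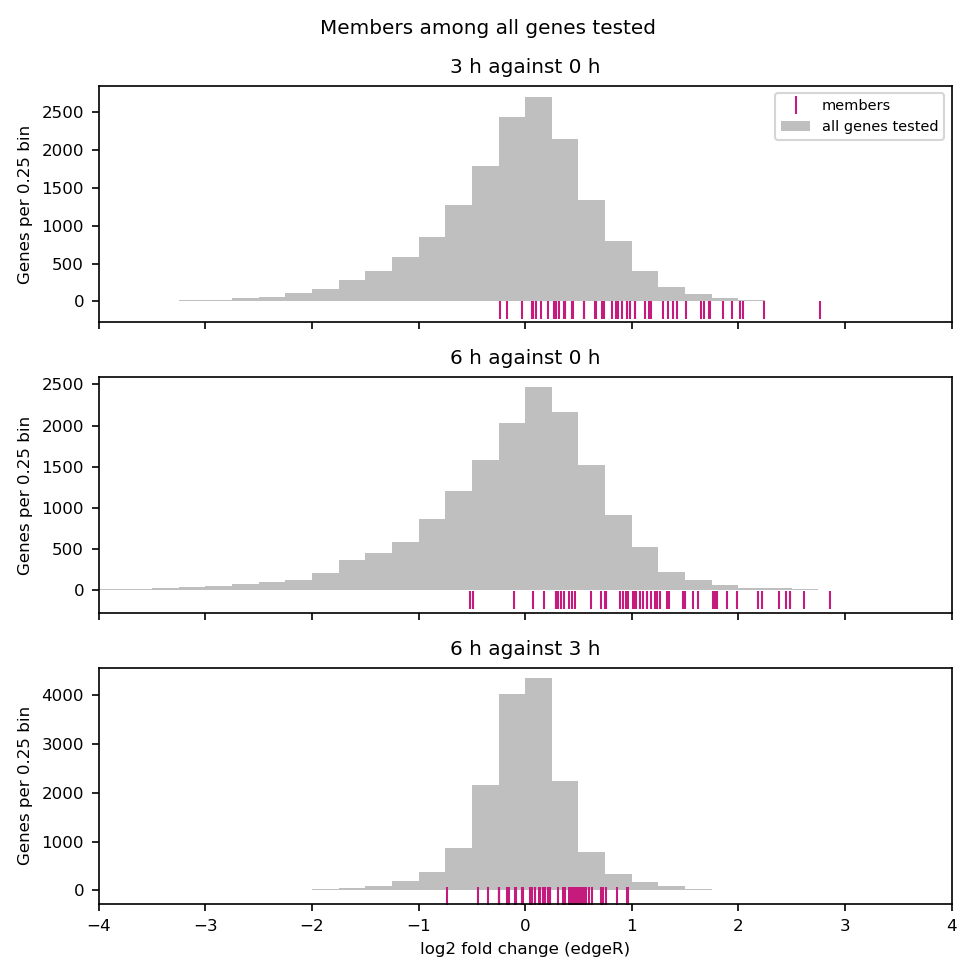
Histogram of log2 fold changes of the genes tested (grey, genes per bin of 0.25, between -4 and 4) with each member as a tick, for 3 h against 0 h, 6 h against 0 h and 6 h against 3 h. The ticks lie mostly right of 0 in the comparisons with 0 h, with medians of 0.86 and 1.10, and sit around a median of 0.36 between 3 h and 6 h.

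The promoters of the members were searched for 3 sequence elements of the unfolded protein response, through which ATF6 and XBP1 are known to act. RefSeq promoter entries on GRCh38.p14, which run from 250 bases before the transcription start to 50 after it, were available for 47 of the 53 members. The searched letters were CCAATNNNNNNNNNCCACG for the ER stress element (ERSE), ATTGG, 1 base of any kind and CCACG for ERSE-II and TGACGTG for the core of the unfolded protein response element (UPRE), on both strands. An ERSE match was found in 5 of 47 member promoters (CALR, CANX, CRELD2, HSP90B1 and HSPA5), against 15 of the 10233 tested genes with an entry (0.147%) and 0.0769% of all 35116 promoter entries. An ERSE-II match was found in 3 members (HERPUD1, HYOU1 and SDF2L1), against 13 tested genes (0.127%) and 0.0541% of all entries. The UPRE core was found in 7 members (FKBP11, HYOU1, SEC61A1, SEC62, SRP19, SSR3 and SSR4), against 340 tested genes (3.32%) and 1.97% of all entries. The counts of tested genes include these members. Many members are known targets of this response, so matches among them were likely beforehand, and the difference in shares was not tested. In HYOU1 the UPRE core overlaps an ERSE-II match. The entries hold 2 ERSE matches for HSP90B1 and 2 ERSE-II matches for HYOU1, and the CANX match, 151 to 133 bases before one start, recurs in entries for 2 other starts of that gene. The matched stretches are shown 5′ to 3′ on the strand of the gene, with the match in capitals and, except for HSPA5, 5 bases on either side. HSPA5, the member with the largest rise at both times, is shown with its whole 250 bases before the start, and the others to let the spacing and letters of the matches be compared.
HSPA5 upstream region, chr9:125241344-125241593 (-): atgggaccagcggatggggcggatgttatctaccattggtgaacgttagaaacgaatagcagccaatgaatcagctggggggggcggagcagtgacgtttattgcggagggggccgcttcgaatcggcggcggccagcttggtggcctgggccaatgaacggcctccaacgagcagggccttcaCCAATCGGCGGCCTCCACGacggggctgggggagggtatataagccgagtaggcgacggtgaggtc
CALR ERSE, chr19:12938379-12938407 (+): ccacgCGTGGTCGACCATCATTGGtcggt
CRELD2 ERSE, chr22:49918549-49918577 (+): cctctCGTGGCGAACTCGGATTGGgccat
HSP90B1 ERSE, chr12:103930211-103930239 (+): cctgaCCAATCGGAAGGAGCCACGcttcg
HSP90B1 ERSE, chr12:103930316-103930344 (+): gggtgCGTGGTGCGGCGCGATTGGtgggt
HERPUD1 ERSE-II, chr16:56932020-56932040 (+): cgccgATTGGGCCACGttggg
SDF2L1 ERSE-II, chr22:21642109-21642129 (+): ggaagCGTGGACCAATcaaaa
HYOU1 ERSE-II, chr11:119057375-119057395 (-): cgtgaCGTGGTCCAATcccag
HYOU1 ERSE-II, chr11:119057269-119057289 (-): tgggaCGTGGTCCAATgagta
In HSPA5 the match lies 66 to 48 bases before the start, and in CRELD2 80 to 62 bases before it on the opposite strand. The CALR match is the farthest from its start in this set, at 225 to 207 bases. All starts are those of the promoter entries. The ERSE matches of CANX, CRELD2 and HSP90B1 and the UPRE core matches of SSR3, SSR4 and SEC62 lie inside the annotated gene span. They are thus upstream of the start in the entry only. Matches of the UPRE core in members without an ERSE or ERSE-II match are shown for 4 genes. In these the match lies wholly upstream of the start in the entry, and the same core recurs on the strand opposite to the gene.
SSR3 UPRE core, chr3:156554154-156554170 (-): acagcCACGTCAgcaag
SSR4 UPRE core, chrX:153794535-153794551 (+): ggggcCACGTCAgtgct
SRP19 UPRE core, chr5:112861171-112861187 (+): catgcCACGTCAgagac
SEC62 UPRE core, chr3:169966786-169966802 (+): cgctcCACGTCAgaggg

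All 8 members with an ERSE or ERSE-II match rose at both times, with medians of 1.59 (3.02-fold) at 3 h and 2.33 (5.04-fold) at 6 h. The 6 members with only the UPRE core also rose at both times, with medians of 1.01 (2.02-fold) at 3 h and 1.34 (2.53-fold) at 6 h. Of the 33 members with none of these letters in the window, 27 rose and 2 fell at 3 h and 29 rose and 2 fell at 6 h, with medians of 0.65 and 1.03. That group held some of the steepest rises too, such as DNAJB9 at 3 h and MANF at 6 h, so the classes overlap. The 6 members without an entry had medians of 0.66 at 3 h and 0.59 at 6 h. These are descriptions of exact letter matches and do not show binding. Outside the members, 20 tested genes carried an ERSE or ERSE-II match. At 3 h 12 of these rose and 5 fell, and at 6 h 15 rose and 2 fell. Their median log2 fold changes were 0.20 and 0.415. For comparison with each of these classes, 32.8% of all genes tested rose and 33.5% fell at 3 h. At 6 h these shares were 35.7% and 35.0%.

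**Figure D3:**
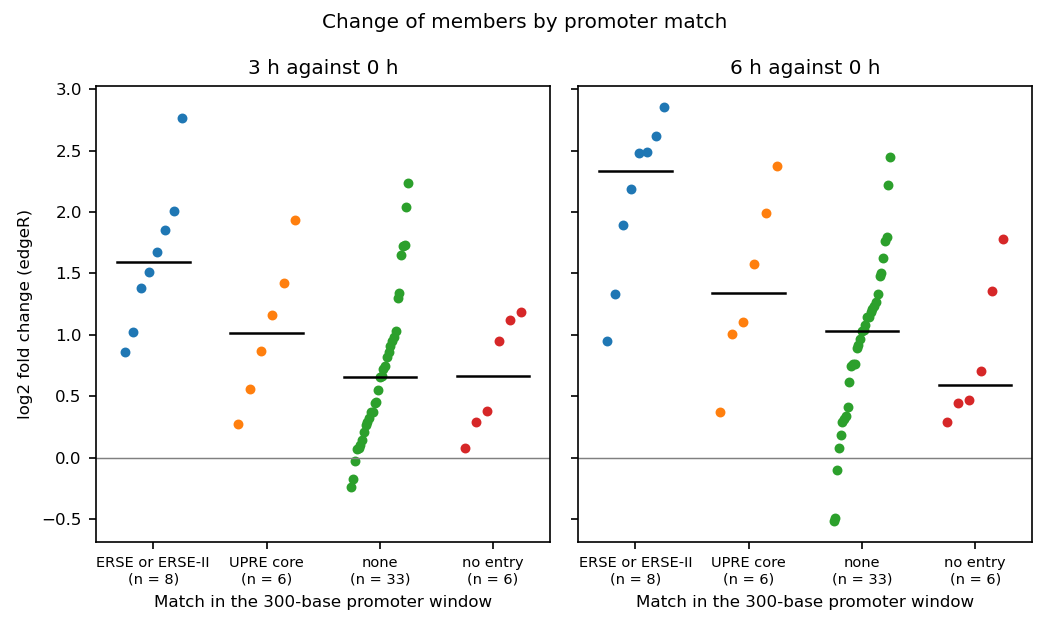
Log2 fold change of each member (points) at 3 h against 0 h and at 6 h against 0 h, by the promoter match in its 300-base window, with the median of each class as a bar. The 8 members with an ERSE or ERSE-II match have medians of 1.59 and 2.33, and the 33 without a match have medians of 0.65 and 1.03 and include points among the highest.

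BiP and the proteins that serve its cycle had the largest median rise of any role group with more than 1 member. At 3 h against 0 h, 8 of 9 rose, with a median log2 fold change of 1.73, and at 6 h against 0 h all 9 rose, with a median of 2.19. For this and the role groups below, the shares of all genes tested that rose were 32.8% at 3 h and 35.7% at 6 h. The share that rose between 3 h and 6 h was 21.5%. HSPA5 (ENSG00000044574, GRCh38 chr9:125234853-125241330, minus strand) encodes BiP itself. Its level was 325, 327 and 323 CPM in the 0 h libraries, 2183, 2227 and 2207 CPM at 3 h and 2425, 2214 and 2422 CPM at 6 h. Every treated library thus lay far above every untreated one, and the 3 h and 6 h libraries overlapped. The log2 fold change was 2.76 at 3 h (SE 0.051, edgeR adjusted p = 2.78e-13) and 2.86 at 6 h (SE 0.051, adjusted p = 7.49e-14). The difference of 0.09 between 6 h and 3 h did not pass (edgeR adjusted p = 0.127) but did so without 6 h replicate 10 (0.14, adjusted p = 0.0174).

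The J-domain proteins, which deliver clients to BiP and start its ATPase, divided by time. DNAJB9 (ERdj4) had 19.3, 21.1 and 19.5 CPM at 0 h, 93.1, 94.8 and 95.1 CPM at 3 h and 58.4, 55.2 and 56.4 CPM at 6 h. Its libraries formed 3 separate levels with the highest at 3 h, with log2 fold changes of 2.24 (SE 0.053, 4.72-fold) at 3 h against 0 h and -0.74 (SE 0.050, edgeR adjusted p = 1.27e-07) at 6 h against 3 h, which left it 2.83-fold above 0 h at 6 h. DNAJC3 (p58IPK), which also restrains the kinase PERK, had 107.6, 104.0 and 84.4 CPM at 0 h, 402, 417 and 400.2 CPM at 3 h and 347, 343 and 341 CPM at 6 h. It too was highest at 3 h, and its fall of 0.24 on the log2 scale between 3 h and 6 h (edgeR adjusted p = 0.0147) was lost without 3 h replicate 6 or 6 h replicate 11, with adjusted p up to 0.0543. DNAJB11 (ERdj3) went on rising, with a log2 fold change of 1.65 at 3 h and 2.22 at 6 h against 0 h.

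The nucleotide exchange factors, which release ADP from BiP, differed from each other. HYOU1 (GRP170) rose 3.20-fold at 3 h and 4.56-fold at 6 h. SIL1, the other exchange factor, had a log2 fold change of -0.03 at 3 h (edgeR adjusted p = 0.683) and rose 1.26-fold at 6 h. With upper-quartile factors and with library size alone, SIL1 was called lower at 3 h, at -0.19 and -0.23 (adjusted p = 0.0217 and 0.00593), and with library size alone its 6 h rise was lost (0.10, adjusted p = 0.178). Per kilobase of exon, SIL1 was the lowest of all members at 3 h and 6 h. SDF2L1, which holds ERdj3 in its chaperone complex, had 35.8, 38.4 and 45.5 CPM at 0 h, 154, 128 and 151 CPM at 3 h and 267, 224 and 242 CPM at 6 h. Its log2 fold change was 1.86 at 3 h and 2.62 at 6 h (SE 0.10 at both), which made it the second largest riser of the members at 6 h. MANF, a small BiP cofactor that can be secreted, had 65.2, 64.2 and 73.7 CPM at 0 h, 231, 216 and 227 CPM at 3 h and 386, 335 and 385 CPM at 6 h. The MANF groups were fully apart, and its log2 fold change was 1.73 at 3 h and 2.44 at 6 h. CRELD2, an ER-resident protein whose gene is known to respond to ER stress, rose 2.04-fold at 3 h and 3.71-fold at 6 h.

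**Figure D4:**
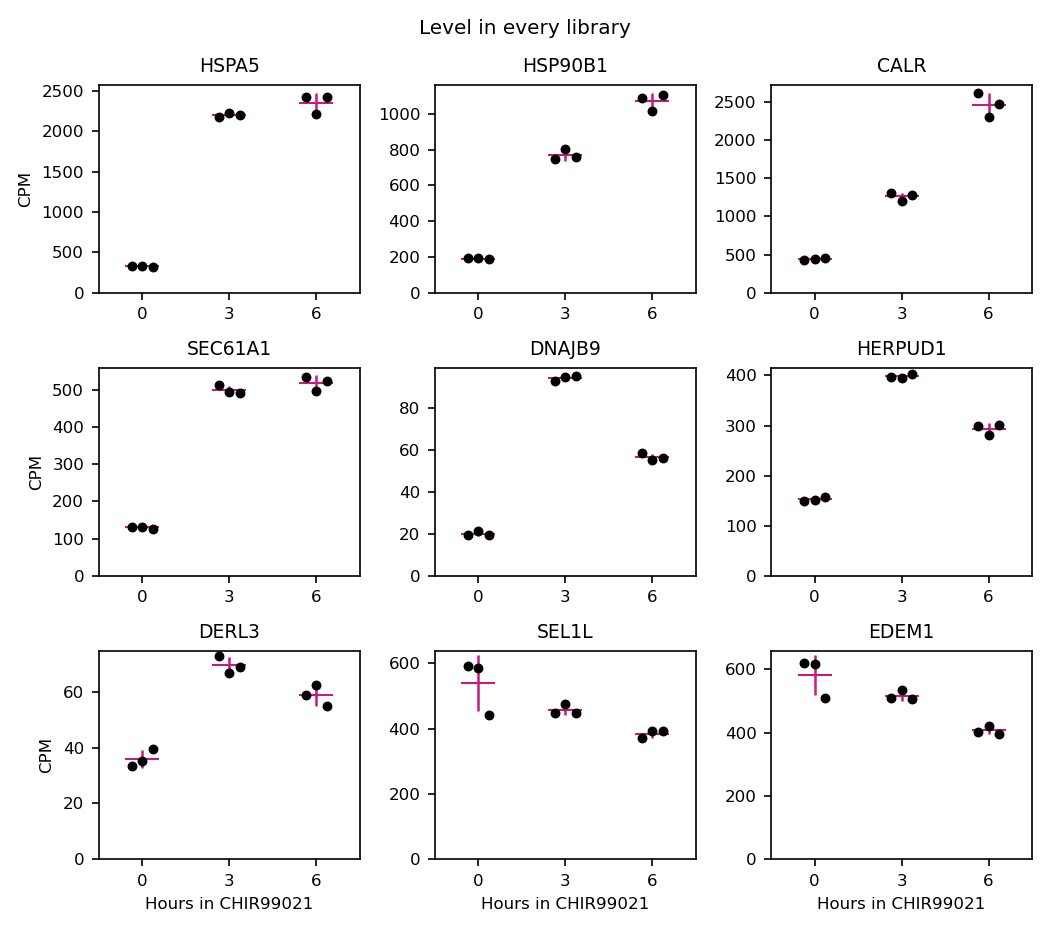
Level of 9 members in every library (points, CPM) at 0 h, 3 h and 6 h, with the mean and SD of 3 libraries. HSPA5 and SEC61A1 reach most of their rise by 3 h, HSP90B1 and CALR go on rising, DNAJB9, HERPUD1 and DERL3 are highest at 3 h, and SEL1L and EDEM1 decline.

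GRP94 and the lectin chaperones rose at both times and further at 6 h. HSP90B1 (ENSG00000166598), which encodes GRP94, had 195, 193 and 186 CPM at 0 h, 746, 805 and 758 CPM at 3 h and 1091, 1017 and 1106 CPM at 6 h. Its log2 fold change was 2.01 at 3 h and 2.49 at 6 h against 0 h (SE 0.052 and 0.053), and 0.48 at 6 h against 3 h (edgeR adjusted p = 6.24e-06). CALR (ENSG00000179218), calreticulin, had 429, 442 and 457 CPM at 0 h, 1305, 1206 and 1275 CPM at 3 h and 2615, 2306 and 2479 CPM at 6 h. The 3 groups of CALR libraries were well apart, and its log2 fold change of 0.97 between 6 h and 3 h was the largest of any member (SE 0.055, adjusted p = 3.10e-08). CANX, the membrane-bound lectin calnexin, had 633, 628 and 552 CPM at 0 h, 1096, 1119 and 1076 CPM at 3 h and 1535, 1460 and 1568 CPM at 6 h, with a log2 fold change of 0.86 at 3 h and 1.33 at 6 h. UGGT1, which puts a glucose back on glycoproteins that are not yet folded so that the lectins hold them again, had 138, 136 and 138 CPM at 0 h, 176, 193 and 166 CPM at 3 h and 236, 257 and 286 CPM at 6 h. UGGT1 had smaller log2 fold changes than the lectins, at 0.37 at 3 h and 0.92 at 6 h, with no overlap between untreated and treated libraries. With library size alone its 3 h value was 0.17 and did not pass (edgeR adjusted p = 0.0529).

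The prolyl isomerases, which speed the turning of proline bonds during folding, all rose at 3 h and 6 h and also between these times. FKBP11 had 38.0, 40.1 and 43.9 CPM at 0 h, 110.7, 109 and 107 CPM at 3 h and 218, 211 and 205 CPM at 6 h. Its log2 fold change was 1.42 at 3 h and 2.38 at 6 h, and the gain of 0.96 between them (edgeR adjusted p = 3.29e-08) was close to that of CALR. PPIB (cyclophilin B) had 88.2, 90.04 and 97.4 CPM at 0 h, 185, 187.5 and 191 CPM at 3 h and 320.5, 294 and 322 CPM at 6 h, a log2 fold change of 1.03 at 3 h and 1.76 at 6 h. FKBP2 had 40.7, 43.3 and 49.8 CPM at 0 h, 56.3, 52.2 and 55.2 CPM at 3 h and 80.2, 69.3 and 74.9 CPM at 6 h. It changed least of these, by 1.22-fold (0.29 on the log2 scale) at 3 h and 1.68-fold at 6 h, and untreated and treated libraries did not overlap. Its 3 h call was lost with upper-quartile factors (0.14, edgeR adjusted p = 0.130) and with library size alone (0.09, adjusted p = 0.296).

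In the targeting step, both receptor subunits had larger log2 fold changes than the 5 proteins of the particle among the members at each time, a difference that was not tested. Of the 7 genes for SRP and its receptor, 6 rose at 3 h and all 7 at 6 h, with median log2 fold changes of 0.87 and 1.01. SRPRB, the membrane-anchored receptor subunit, had 67.7, 68.0 and 69.6 CPM at 0 h, 225, 222 and 231 CPM at 3 h and 219, 199.6 and 215 CPM at 6 h. SRPRB had a log2 fold change of 1.72 at 3 h and 1.62 at 6 h against 0 h, and the difference of -0.10 between 6 h and 3 h did not pass (edgeR adjusted p = 0.118), although its 6 h libraries all lay below its 3 h libraries. That difference passed with library size alone (adjusted p = 0.0185), with only the 3 h and 6 h libraries fitted (adjusted p = 0.0295) and without untreated replicate 3 (adjusted p = 0.0490). SRPRA, the subunit that binds SRP, had 126, 121 and 121 CPM at 0 h, 274, 266 and 264 CPM at 3 h and 325, 294 and 324 CPM at 6 h, with log2 fold changes of 1.12 and 1.35 against 0 h. Among the proteins of the particle, SRP72 had 147.5, 145 and 135 CPM at 0 h, 228, 238 and 236 CPM at 3 h and 293, 277 and 301 CPM at 6 h. SRP72 rose 1.64-fold at 3 h and 2.04-fold at 6 h, beside SRP68, its binding partner, with 1.97-fold and 1.95-fold. SRP19, an assembly factor of the particle, rose 1.83-fold and 2.01-fold, and SRP54, the subunit that reads the signal sequence, 1.46-fold and 1.53-fold. SRP14, of the Alu domain that slows translation, did not pass at 3 h (1.05-fold, edgeR adjusted p = 0.299) and rose 1.22-fold at 6 h. Without untreated replicate 3, the SRP14 difference at 3 h passed at 0.14 on the log2 scale (adjusted p = 0.0148), and its 6 h rise of 0.29 was lost with upper-quartile factors (0.14, adjusted p = 0.0621) and with library size alone (0.05, adjusted p = 0.443).

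All 5 translocon genes rose at both times, with median log2 fold changes of 0.66 at 3 h and 1.04 at 6 h, and SEC61A1 led them. SEC61A1 (ENSG00000058262), the channel itself, had 132, 132.0 and 127 CPM at 0 h, 512, 494 and 492 CPM at 3 h and 535, 496 and 523 CPM at 6 h. It rose 3.83-fold at 3 h (log2 fold change 1.94, SE 0.048) and 3.98-fold at 6 h (1.99, SE 0.048), so that 97.3% of its log2 change at 6 h was present at 3 h. The small subunits of the channel were slower. SEC61B had 82.3, 83.2 and 95.6 CPM at 0 h, 149.8, 135 and 152 CPM at 3 h and 222, 196 and 209.8 CPM at 6 h, a log2 fold change of 0.74 at 3 h and 1.27 at 6 h. SEC61G had 39.3, 40.6 and 47.4 CPM at 0 h, 69.2, 63.8 and 68.6 CPM at 3 h and 93.5, 76.2 and 92.2 CPM at 6 h, a log2 fold change of 0.66 and 1.04. Per kilobase of exon, the level of SEC61A1 was 27.7 ± 0.588 CPM at 0 h, 106 ± 2.38 CPM at 3 h and 110.3 ± 4.29 CPM at 6 h, and that of SEC61B was 73.1 ± 6.22, 122 ± 7.45 and 176 ± 10.9 CPM at these times (SD, n = 3 each). In CPM without division by exon length, SEC61A1 was the higher at each time. Its means were 130, 499 and 518 CPM, against 87.0, 146 and 209 CPM for SEC61B. The order of these subunits per kilobase thus rests on the exon lengths. SEC62 and SEC63, which assist entry of chains after their synthesis, moved least, by 1.21-fold and 1.29-fold at 3 h and by 1.29-fold and 1.33-fold at 6 h. The 3 h call of SEC62 was lost with library size alone (0.07 on the log2 scale, edgeR adjusted p = 0.140).

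The TRAP complex (SSR1 to SSR4), which sits beside the channel and helps chains with weak signal sequences enter, had the narrowest range among the groups of 4 or more genes, with log2 fold changes at 6 h between 1.10 and 1.58. All 4 subunits rose at both times and also between 3 h and 6 h. SSR3 had 264, 257 and 293 CPM at 0 h, 604, 601 and 613 CPM at 3 h and 810.4, 769 and 855 CPM at 6 h, a log2 fold change of 1.16 at 3 h and 1.58 at 6 h. SSR1 had 177, 175 and 171 CPM at 0 h, 433, 458 and 437 CPM at 3 h and 489.9, 457 and 508 CPM at 6 h. Its log2 fold change was 1.34 at 3 h and 1.48 at 6 h, and the gain of 0.13 between them (edgeR adjusted p = 0.0448) was lost when any 1 of 6 libraries was left out, with adjusted p up to 0.173, and also with library size alone (adjusted p = 0.0814) and with no filter (adjusted p = 0.0826). SSR2 had 118, 117 and 127 CPM at 0 h, 221, 213 and 221 CPM at 3 h and 290.4, 272 and 278 CPM at 6 h, and SSR4 rose 1.47-fold at 3 h and 2.15-fold at 6 h. SSR2 rose 1.81-fold at 3 h and 2.32-fold at 6 h, and untreated and treated libraries did not overlap for any of the 4 subunits.

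In signal peptidase the alternative catalytic subunits took different courses. Of its 5 genes, 3 rose at 3 h and 4 at 6 h, with median log2 fold changes of 0.44 and 0.89. SPCS3, an accessory subunit, had 369, 365 and 322.5 CPM at 0 h, 673, 685 and 687 CPM at 3 h and 800.1, 795 and 803 CPM at 6 h, a rise of 1.94-fold at 3 h and 2.27-fold at 6 h. SPCS2, also accessory, had 66.9, 68.4 and 77.4 CPM at 0 h, 100.7, 91.9 and 98.4 CPM at 3 h and 158, 136 and 155 CPM at 6 h, a rise of 1.37-fold and 2.11-fold. Pseudogenes named after SPCS2 held 85.2% as many counts as SPCS2, and the largest of them, SPCS2P4, had log2 fold changes of 0.60 and 1.22 beside 0.45 and 1.08 for SPCS2, so reads could have been split between them. Of the catalytic subunits, SEC11C had 53.1, 54.8 and 57.1 CPM at 0 h, 72.5, 75.3 and 76.5 CPM at 3 h and 104, 93.2 and 109 CPM at 6 h, a log2 fold change of 0.44 at 3 h and 0.89 at 6 h. SEC11A had 72.6, 75.0 and 80.9 CPM at 0 h, 78.9, 80.8 and 79.9 CPM at 3 h and 74.02, 65.6 and 73.5 CPM at 6 h. Its libraries overlapped between treated and untreated cells, with log2 fold changes of 0.07 at 3 h (edgeR adjusted p = 0.316) and -0.10 at 6 h (adjusted p = 0.140), and it fell by 0.17 between 3 h and 6 h (adjusted p = 0.0315). That fall was lost without any 1 of the 3 h libraries or without 6 h replicate 10, with adjusted p up to 0.120. At 6 h against 0 h, SEC11A was called lower with upper-quartile factors (-0.25, adjusted p = 0.00180), with library size alone (-0.34, adjusted p = 0.000120) and with a filter of 1 CPM in 3 libraries (-0.14, adjusted p = 0.0378), and at 3 h with library size alone (-0.13, adjusted p = 0.0429). SPCS1, a further accessory subunit, did not pass at 3 h (1.05-fold, adjusted p = 0.348) and rose 1.36-fold at 6 h.

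All 6 oligosaccharyltransferase genes rose at 3 h, at 6 h and between these times, with median log2 fold changes of 0.74 and 1.19 against 0 h. RPN1 (ribophorin I), which anchors the enzyme at the translocon, had 187, 187.5 and 188 CPM at 0 h, 428, 421 and 429 CPM at 3 h and 672, 609 and 654 CPM at 6 h. RPN1 had log2 fold changes of 1.18 at 3 h and 1.78 at 6 h (SE 0.048 at both), with close replicates and no overlap between times. The catalytic subunits STT3A and STT3B define separate enzymes, of which the STT3A form works on chains still entering the ER and the STT3B form also on sites that were skipped. STT3A had 147, 148 and 144 CPM at 0 h, 278, 279 and 268 CPM at 3 h and 373, 349.7 and 385 CPM at 6 h, a rise of 1.88-fold at 3 h and 2.52-fold at 6 h. STT3B rose by 0.29 on the log2 scale at 3 h and by 0.47 at 6 h, and its gain of 0.18 between them was lost without 3 h replicate 5 or 7 or 6 h replicate 11, with edgeR adjusted p up to 0.0608. Per kilobase of exon, STT3A had 19.8 ± 0.321 CPM at 0 h, 37.2 ± 0.830 CPM at 3 h and 49.9 ± 2.39 CPM at 6 h, and STT3B 47.5 ± 3.41, 58.0 ± 1.13 and 65.8 ± 1.19 CPM at these times (SD, n = 3 each). The distance between them per kilobase was thus narrower at 6 h than at 0 h, although STT3B stayed above by this measure. In CPM without division by exon length, STT3B was above STT3A at 0 h (238 against 146 CPM). At 6 h STT3B was below STT3A in CPM (330 against 369 CPM). The order at 6 h thus depends on the exon lengths, which count every annotated exon of a gene. RPN2 (ribophorin II) had 94.9, 94.2 and 95.7 CPM at 0 h, 164.0, 169.5 and 169 CPM at 3 h and 226, 217 and 226 CPM at 6 h. RPN2 rose 1.76-fold and 2.35-fold, DDOST 1.57-fold and 2.21-fold, and DAD1, a small structural subunit, 1.25-fold and 1.69-fold at 3 h and 6 h. With library size alone, the 3 h calls of STT3B (0.09 on the log2 scale, edgeR adjusted p = 0.133) and DAD1 (0.12, adjusted p = 0.120) were lost.

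**Figure D5:**
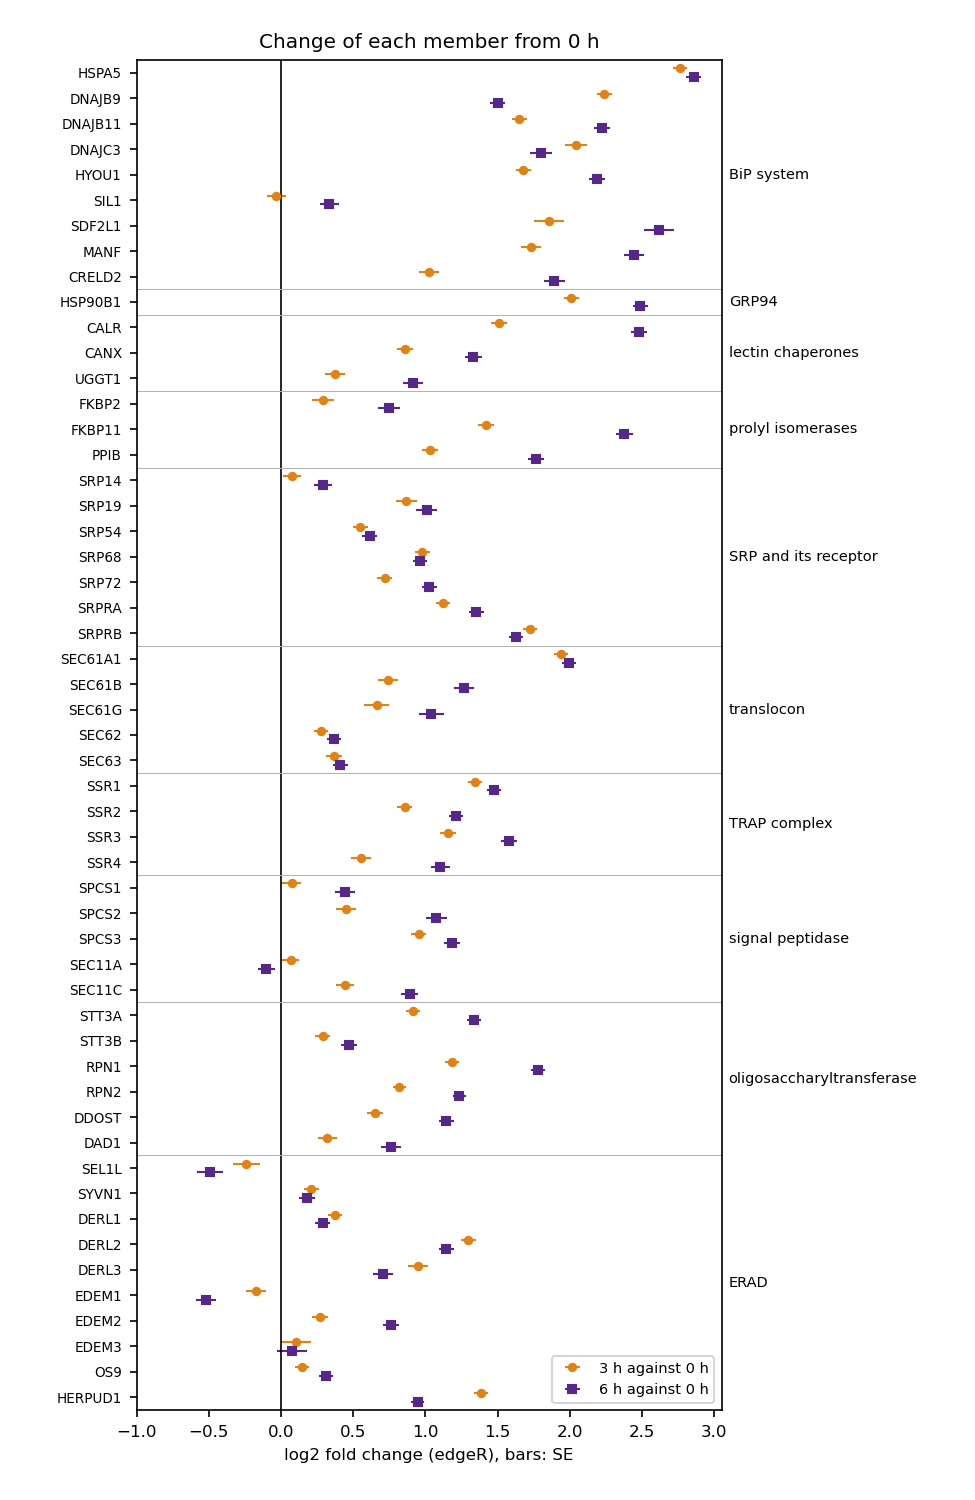
Log2 fold change of each member at 3 h against 0 h (circles) and at 6 h against 0 h (squares), with bars of 1 SE, ordered by role. Squares lie right of circles for most members, left of them by the most for DNAJB9 and HERPUD1, and SEL1L and EDEM1 lie left of 0 at both times.

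Against 0 h, ERAD was the role group in which members went different ways. Of its 10 genes, 7 rose, 2 fell and 1 did not pass at each time against 0 h, with median log2 fold changes of 0.24 at 3 h and 0.30 at 6 h. Between 3 h and 6 h, 2 rose, 5 fell and 3 did not pass. Of all genes tested, 32.8% rose and 33.5% fell at 3 h against 0 h, and 35.7% and 35.0% at 6 h. At 6 h against 3 h these shares were 21.5% and 21.9%. The summed level of these genes was 2069 ± 155 CPM at 0 h, 2339 ± 17.7 CPM at 3 h and 2058 ± 15.03 CPM at 6 h (SD, n = 3 each). The sum of the BiP system was 960 ± 7.73 CPM at 0 h, 4303 ± 7.79 CPM at 3 h and 5174 ± 226 CPM at 6 h.

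The rising ERAD genes included a set that was highest at 3 h. HERPUD1 (ENSG00000051108), a membrane protein that organises the ligase complex, had 149.9, 150.5 and 157 CPM at 0 h, 397, 394 and 403 CPM at 3 h and 298, 281 and 302 CPM at 6 h. Its 3 groups did not overlap, and its log2 fold change was 1.38 at 3 h (SE 0.047) and 0.95 at 6 h (SE 0.046) against 0 h, and -0.44 (SE 0.046, edgeR adjusted p = 6.18e-06) at 6 h against 3 h. The derlins are membrane proteins through which misfolded chains leave the ER. DERL2 had 14.2, 13.6 and 13.3 CPM at 0 h, 34.3, 33.4 and 33.3 CPM at 3 h and 29.8, 30.4 and 30.8 CPM at 6 h. Its log2 fold change was 1.30 at 3 h and 1.14 at 6 h, and its fall of 0.15 between them (adjusted p = 0.0263) was lost without any 1 of the 3 h libraries or without 6 h replicate 9, with adjusted p up to 0.0931, and also with no filter (adjusted p = 0.0897). DERL3 had 33.4, 35.0 and 39.4 CPM at 0 h, 72.7, 66.9 and 68.8 CPM at 3 h and 58.7, 62.4 and 55.0 CPM at 6 h. It was 1.93-fold higher at 3 h and 1.63-fold higher at 6 h, and its fall of 0.24 between them (adjusted p = 0.00973) was lost without 6 h replicate 11 (adjusted p = 0.0554). DERL1 rose 1.30-fold at 3 h and 1.22-fold at 6 h, of which the 6 h call was lost with library size alone (0.05 on the log2 scale, adjusted p = 0.268).

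The members that fell were SEL1L, the adaptor that joins substrates to the ubiquitin ligase, and EDEM1, a mannosidase-like protein that marks glycoproteins for removal. SEL1L (ENSG00000071537) had 592, 587 and 442 CPM at 0 h, 448, 476 and 449.5 CPM at 3 h and 371, 392 and 392 CPM at 6 h. Untreated replicate 3 was lower than the other untreated libraries and also lower than every 3 h library, whereas all 6 h libraries were below all untreated ones. The log2 fold change was -0.24 at 3 h (SE 0.092, edgeR adjusted p = 0.0363) and -0.49 at 6 h (SE 0.092, adjusted p = 0.000458). EDEM1 had 619, 618 and 508 CPM at 0 h, 508, 535 and 507.5 CPM at 3 h and 403, 420.1 and 397 CPM at 6 h, and untreated replicate 3 lay among the 3 h values. Its log2 fold change was -0.17 at 3 h (SE 0.068, adjusted p = 0.0388) and -0.52 at 6 h (SE 0.068, adjusted p = 1.06e-05). Without untreated replicate 3 the differences were larger, at -0.37 for SEL1L and -0.26 for EDEM1 at 3 h and at -0.62 and -0.61 at 6 h. The 3 h calls of both genes were lost when any 1 of 7 libraries was left out, with adjusted p up to 0.132 for SEL1L and 0.144 for EDEM1, and when only the 0 h and 3 h libraries were fitted, while the 6 h calls held in each fit without 1 library. At 6 h against 3 h SEL1L fell by 0.25 (adjusted p = 0.0454) and EDEM1 by 0.35 (adjusted p = 0.00106), and the SEL1L call was lost when any 1 of the 6 treated libraries was left out.

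The paralogs of EDEM1 did not share its course. EDEM2, which trims mannose early in the pathway, had 23.5, 24.5 and 24.9 CPM at 0 h, 28.8, 28.2 and 30.9 CPM at 3 h and 42.0, 39.5 and 42.1 CPM at 6 h. EDEM2 rose by 0.27 on the log2 scale at 3 h and by 0.76 at 6 h, and its 3 groups did not overlap. Its 3 h call was lost with upper-quartile factors (0.12, edgeR adjusted p = 0.0700) and with library size alone (0.07, adjusted p = 0.269). EDEM3 did not pass at 3 h (log2 fold change 0.10, edgeR adjusted p = 0.399) or at 6 h (0.08, adjusted p = 0.536). SYVN1 (HRD1), the ubiquitin ligase to which SEL1L binds, rose 1.16-fold at 3 h and 1.13-fold at 6 h. Both SYVN1 calls were lost with upper-quartile factors (0.06 and 0.03 on the log2 scale, edgeR adjusted p = 0.366 and 0.596). OS9, a lectin that hands glycoproteins to SEL1L, rose 1.11-fold and 1.24-fold, of which the 3 h call was lost without untreated replicate 1 (adjusted p = 0.0582). With libraries scaled by size alone, the differences of SYVN1 and OS9 did not pass at either time, at 0.01 and -0.06 on the log2 scale at 3 h and -0.05 and 0.08 at 6 h. Per kilobase of exon, EDEM1 stood at 86.1 ± 9.45 CPM at 0 h, 76.4 ± 2.30 CPM at 3 h and 60.2 ± 1.78 CPM at 6 h, which placed it at number 4, 18 and 23 among the members. EDEM2 stood at 12.7 ± 0.393, 15.3 ± 0.738 and 21.5 ± 0.763 CPM at these times (SD, n = 3 each).

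Sorted by course over time, 31 members were higher at 3 h and 6 h than at 0 h and rose further between the treated times. A further 10 were higher at both times with no call between 3 h and 6 h, among them HSPA5, SEC61A1 and SRPRB. DNAJB9, DNAJC3, DERL2, DERL3 and HERPUD1 were higher at both times and fell between them. SIL1, SRP14 and SPCS1 did not pass at 3 h and rose at 6 h, SEL1L and EDEM1 fell in every comparison, SEC11A was called, as lower, only between 3 h and 6 h, subject to the scaling described above, and EDEM3 passed in none. At 6 h against 3 h, 34 members rose, against 21.5% of all genes tested, and 8 fell, against 21.9%. No member differed by 2-fold between 6 h and 3 h, against 1.67% of all genes higher and 2.17% lower by that much. The libraries of 6 h and 3 h did not overlap for 33 higher and 10 lower members, against 27.2% and 28.0% of all genes, and the median log2 fold change was 0.36 (1.28-fold) against 0.01 for all genes. The largest gains were those of CALR (0.97), FKBP11 (0.96) and CRELD2 (0.87), and the largest falls were those of DNAJB9 (-0.74) and HERPUD1 (-0.44).

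Compared per kilobase of exon, the order of the members changed with treatment. CALR was highest at 0 h with 163 ± 5.05 CPM per kb, followed by CANX with 96.9 ± 7.25 and DAD1 with 86.9 ± 7.63. CANX and DAD1, DAD1 and EDEM1, and EDEM1 and HSPA5, which were neighbours in the order at 0 h, did not differ beyond their spread. HSPA5 was number 5 at 0 h with 83.1 ± 0.530 CPM per kb, number 1 at 3 h with 564 ± 5.60 and number 2 at 6 h with 602 ± 30.96. CALR, with 465 ± 18.7 CPM per kb at 3 h and 909 ± 57.0 at 6 h, was below HSPA5 at 3 h and above it at 6 h, by more than their spread each time (SD, n = 3 each). Without division by exon length, CALR and HSPA5 did not differ beyond their spread at 6 h (2467 ± 155 and 2354 ± 121 CPM). Their difference per kilobase at 6 h thus rests on the exon lengths. HSP90B1 was number 16 at 0 h and number 4 at 3 h and 6 h. DNAJB9 stayed among the lower members, at 7.05 ± 0.355 CPM per kb at 0 h, 33.2 ± 0.375 at 3 h and 19.96 ± 0.580 at 6 h.

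Genes of the same pathway outside the 53 moved in the same direction less uniformly, although this difference was not tested. Of 85 tested, 58 rose and 11 fell at 3 h, and 63 rose and 14 fell at 6 h, with median log2 fold changes of 0.38 and 0.43. Of all genes tested, 32.8% rose and 33.5% fell at 3 h, and 35.7% rose and 35.0% fell at 6 h. These lists, like the members, were chosen with earlier results of these data known. Among other SRP and translocon genes, 13 of 15 rose at 3 h and 12 rose and 1 fell at 6 h, led by TRAM1, a channel-associated membrane protein (2.70-fold at 6 h), EMC1 (2.35-fold) and EMC10 (2.13-fold), both of the membrane protein insertase, while SRP9, of the Alu domain of SRP, did not pass at either time (0.08 and 0.02 on the log2 scale, edgeR adjusted p = 0.201 and 0.715). All 5 other oligosaccharyltransferase genes rose at 6 h, among them MAGT1 of the STT3B enzyme (2.65-fold), OSTC of the STT3A enzyme (a log2 fold change of 1.35) and TMEM258 (1.41-fold). Of 22 genes that build or trim the glycan, 16 rose and 3 fell at 6 h, with DHDDS, a dolichol synthesis enzyme, at 2.56-fold and malectin (MLEC), an ER lectin, at 2.95-fold. Of 26 other ERAD genes, 19 rose and 5 fell at 6 h, with SELENOS at 3.31-fold and the peptidase HM13 at 2.61-fold higher, while HERPUD2 fell 2.33-fold beside the rise of HERPUD1. Of 17 other ER chaperones, 11 rose and 5 fell at 6 h. MESD rose 3.07-fold, DNAJC25 2.23-fold and FKBP14, a prolyl isomerase, 2.00-fold. Those that fell were FKBP7, CNPY4, ERP29, RCN1 and FKBP10, of which FKBP10 had a mean of only 0.21 CPM at 0 h.

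For 11 members, a gene whose whole span overlaps theirs held at least 20% as many counts. These members were DNAJB9 (THAP5 and PNPLA8), PPIB (SNX22), SRP19 (REEP5), SRPRA (FOXRED1), SEC61A1 (RUVBL1), SSR4 (IDH3G), SPCS1 (GLT8D1 and NEK4), STT3A (CHEK1), SYVN1 (FAU and MRPL49), DERL2 (MIS12) and DERL3 (SMARCB1). Whether exons are shared was not examined. The counting set aside 2.53% to 2.76% of the reads of a library as ambiguous. No source used here gives its strand setting, so how reads in the overlaps were counted is not known. That setting would not separate CHEK1 or FAU from the member, which lies on the same strand. MIS12, with 104% of the counts of DERL2, changed in the same direction as DERL2 in each comparison. Its log2 fold changes were 0.86 at 3 h and 0.43 at 6 h against 0 h and -0.43 at 6 h against 3 h. THAP5, with 93.1% of the counts of DNAJB9, differed by 0.40, 0.07 and -0.33 in these comparisons, and RUVBL1, with 23.3% of those of SEC61A1, by -0.33, -0.30 and 0.03. PNPLA8, the other neighbour of DNAJB9, differed by -0.68, -1.19 and -0.51. GLT8D1, with 63.2% of the counts of SPCS1, differed by -0.09, 0.43 and 0.52, beside 0.07, 0.44 and 0.37 for SPCS1. REEP5, with 197% of the counts of SRP19, differed by 0.47, 0.78 and 0.31, and IDH3G, the neighbour of SSR4, by 0.38, 0.64 and 0.25. NEK4 differed by 0.32, 0.45 and 0.14, and CHEK1, the neighbour of STT3A on the same strand, by 0.50, 0.36 and -0.13. SMARCB1, with 787% of the counts of DERL3, differed by 0.05, 0.18 and 0.14, beside 0.95, 0.71 and -0.24 for DERL3. FAU, on the same strand as SYVN1 and with 137% of its counts, differed by 0.10, 0.32 and 0.22. The values of SYVN1 were 0.21, 0.18 and -0.03, and those of its neighbour MRPL49 were 0.30, 0.38 and 0.08. SNX22 differed by -0.18, -0.08 and 0.10, and FOXRED1 by -0.27, 0.22 and 0.48. The part of these overlaps in the results was not tested.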

How the data were processed

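RNA sequencing libraries of Ramos cells (3 each at 0 h, 3 h and 6 h of CHIR99021) were grouped by the times in their labels. The deposited values are raw counts of reads per gene, without normalization. Reads were aligned to hg19 with GSNAP and counted with HTSeq (0.6.0), per the submitters' processing notes, which also name limma (3.30.0). The strand setting is not given in the sources used here. The table held 60234 gene identifiers, and 0 count columns were of samples outside the study. Gene names, exon lengths and gene coordinates came from GENCODE on GRCh38, matched by identifier, and promoter letters from RefSeq on GRCh38.p14.

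Genes were kept by edgeR's filterByExpr (minimum count 10, minimum total 15). The deposited counts of the remaining 15847 genes were fitted with edgeR 4.0.16 in R 4.3.3 (TMM factors, robust quasi-likelihood, 1 mean per time, 6 residual degrees of freedom), with Benjamini-Hochberg adjustment over all genes and a threshold of 0.05. The standard error is the size of the log2 fold change over the square root of F. The fitting steps were tested on simulated data with known changes. Figures and summaries used Python 3.11.15, pandas 2.3.3, numpy 2.4.6 and matplotlib 3.10.9. Each result was also computed with DESeq2 1.42.0, with voom in limma 3.58.1, and with other scaling factors, other filters, a minimum fold of 1.2, fits of the compared groups only, and fits without each library. The 53 members and all gene lists were chosen with earlier results of these data known. Values in every library are given for the members of each role with the largest log2 fold changes and for members that fell where others of their role rose. They are also given where calls against 0 h had opposite signs or the 6 h against 3 h call went against the 3 h call. All others are given by their changes. Protein sequences were not analysed here.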

Additional observations from a re-analysis of the deposited data

Results flagged for a closer look

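The change from 0 h differed between the 3 h and 6 h groups for most members, by the edgeR test of 6 h against 3 h. It was higher at 6 h for 34 members, against 21.5% of all genes tested, and lower at 6 h for 8, against 21.9%. Among members that were above 0 h at both times, 5 were lower at 6 h than at 3 h. Their log2 differences of 6 h against 3 h were -0.74 for DNAJB9, -0.44 for HERPUD1, -0.24 for DNAJC3, -0.24 for DERL3 and -0.15 for DERL2. These differences compare treated libraries with each other. MIS12, which overlaps DERL2 on the opposite strand, and THAP5, which overlaps DNAJB9, were also lower at 6 h than at 3 h, by -0.43 and -0.33, and their part in the result was not tested.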

How the results depend on the processing

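The counts of members that rose were 38 to 47 for 3 h against 0 h, 44 to 49 for 6 h against 0 h and 23 to 35 for 6 h against 3 h. DESeq2, limma-voom and DESeq2 size factors in edgeR gave the same counts as the edgeR fit. The number of members that fell at 3 h was 4 with library size alone, 0 with a minimum fold of 1.2 and 0 with the compared groups only, and 0 to 2 without each library in turn. The number that fell at 6 h against 3 h was 2 with a minimum fold of 1.2 and 4 to 9 without each library. At 3 h, upper-quartile factors turned the sign of SRP14 (-0.078), SPCS1 (-0.080), SEC11A (-0.085), EDEM3 (-0.047) and OS9 (-0.0078), and library size alone that of SRP14 (-0.13), SPCS1 (-0.13), SEC11A (-0.13), EDEM3 (-0.10) and OS9 (-0.057). At 6 h, upper-quartile factors turned EDEM3 (-0.068), and library size alone SYVN1 (-0.054) and EDEM3 (-0.16). Without each library in turn, EDEM3 ran from -0.029 to 0.171 at 3 h and from -0.058 to 0.145 at 6 h, the lowest without untreated replicate 3. For 6 h against 3 h, SRP68 ran from -0.044 to 0.036, SYVN1 from -0.065 to 0.019 and EDEM3 from -0.077 to 0.024. Of all genes called at 3 h, 49.5% were higher, against 36.0% with upper-quartile factors and 31.8% with library size alone, and at 6 h 50.5%, 39.3% and 32.8%. The cause of these differences was not tested. Replicate numbers do not repeat between groups and the labels state no pairing. Whether libraries were matched between times is thus not known, and no paired analysis was made. Fold changes near 0 depend on the scaling, and small ones on single libraries, since each group has 3.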

Other observations

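Genes outside the 53 whose promoter entries hold an ERSE match included other ER proteins. PDIA6, a protein disulfide isomerase, rose 2.28-fold at 3 h and 3.66-fold at 6 h, and SERP1, a translocon-associated protein, rose 1.40-fold and 1.80-fold. FICD, which adds AMP to BiP and removes it, rose 3.43-fold at 3 h and 2.31-fold at 6 h, and like DNAJB9 and HERPUD1 it fell between 3 h and 6 h, by 0.57 on the log2 scale (edgeR adjusted p = 6.09e-05). ERO1B, an oxidase of the ER, fell by 0.34 on the log2 scale at 3 h (edgeR adjusted p = 0.000316) and rose 1.14-fold at 6 h (adjusted p = 0.0185). XBP1 itself rose by 0.26 on the log2 scale at 3 h and by 0.39 at 6 h. GYS1, a glycogen synthase whose promoter entry holds an ERSE-II match, fell by 0.67 on the log2 scale at 3 h and by 0.45 at 6 h.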
